A study of Mus musculus with 9 samples.

Results

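The set described here holds 10 genes of the metalloproteinase system, taken from the deposited expression table by their symbols out of 25108 genes and gene models. It has 8 proteases and 2 inhibitors. The proteases are the gelatinases Mmp2 and Mmp9, the membrane-type enzymes Mmp14, Mmp15 and Mmp24, and the secreted ADAMTS enzymes Adamts1, Adamts4 and Adamts9. The inhibitors are Timp2 and Timp3. RNA was measured in mouse retina, strain C57BL/6, at postnatal day 17, with 3 libraries in each of 3 groups. RA WT is wild-type retina from mice kept in room air. OIR WT is wild-type retina after oxygen-induced retinopathy, in which pups are kept in high oxygen, lose retinal capillaries, and on return to air develop a hypoxic retina with new vessel tufts. OIR KO is retina of IL-19 knockout mice put through the same model. No knockout retina from room air was analysed, so genotype and retinopathy could be compared only through the wild type, and the sources used here do not describe the knockout allele.

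Metalloproteinases are zinc enzymes that cut proteins of the extracellular matrix and the cell surface. They are made as inactive precursors, so an RNA level is not a measure of activity. Membrane-type enzymes stay anchored at the cell surface, and MMP14 with TIMP2 forms the complex that activates MMP2. ADAMTS enzymes carry thrombospondin repeats, and several of them cut the large chondroitin sulphate proteoglycans of the matrix. TIMPs are small secreted proteins that block the active site. TIMP3 binds to the matrix and is best known in the eye from a dominant dystrophy of the macula, the central retina. When vessels sprout, endothelial cells and pericytes use these enzymes to open the basement membrane.

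Il19, the targeted gene, was listed at 0 in all libraries except RA WT 1, at 0.0406 FPKM (fragments scaled to gene length and library total), so its RNA did not check the genotype labels. Rod genes summed to between 8927 and 12426 FPKM in every library, as a retina should show. Timp1, an inhibitor outside the set, divided the retinopathy libraries within their groups. It was at 17.7, 3.27 and 18.6 FPKM in OIR WT 1 to 3, so that OIR WT 2 stood apart, and at 1.78, 16.9 and 1.96 FPKM in OIR KO 1 to 3, so that OIR KO 2 did. Summed lens markers were high in RA WT 1 (54.8 FPKM) and OIR KO 2 (30.5 FPKM) and reached at most 7.83 FPKM elsewhere. Y-linked genes were at 0 in RA WT 2 and OIR KO 1. They summed to 64.0 and 32.9 FPKM in RA WT 1 and RA WT 3, and to 64.2 and 63.5 FPKM in OIR KO 2 and OIR KO 3. Within RA WT and within OIR KO, the libraries thus did not all come from the same animals. Beyond that, it is not stated that the 3 libraries of a group came from different animals. The p-values therefore reflect only how far these libraries spread. That spread may be technical in part, and in OIR WT it may be technical throughout.

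All 10 genes were kept by the filter on low values (at least 0.5 FPKM in at least 3 of 9 libraries). Adamts9 reached that level in 7 libraries, only 1 of them RA WT, so its place in the test came through the retinopathy groups. FPKM is scaled by gene length, so levels can be set side by side. In RA WT the inhibitors were highest, Timp2 at 31.1 ± 6.95 FPKM (SD, n = 3, as for all means below) and Timp3 at 24.8 ± 4.60 FPKM, with overlapping ranges. Mmp9 (9.73 ± 0.789), Mmp14 (9.02 ± 1.19) and Mmp24 (8.74 ± 1.37 FPKM) followed without a gap between neighbours. Adamts1 (6.33 ± 0.742), Mmp2 (5.82 ± 0.490) and Mmp15 (4.81 ± 1.27 FPKM) formed the next run of overlapping ranges. Adamts4 (0.797 ± 0.0409) and Adamts9 (0.465 ± 0.140 FPKM) lay apart below them and from each other.

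The order of the proteases changed in retinopathy, while the inhibitors stayed on top in every group. By group means, Mmp9 went from the highest protease in RA WT to the fifth in both OIR WT and OIR KO, where Mmp14 and Adamts1 led. Neighbours in this order often overlapped. The ranges did so for Mmp9 and Mmp14 in RA WT, Mmp24 and Mmp9 in OIR WT, and Adamts1 and Mmp2 in OIR KO. The 8 proteases together summed to 41.1 to 50.6 FPKM in room air (RA WT), 47.4 to 65.9 FPKM in OIR WT and 46.3 to 62.2 FPKM in OIR KO. Timp2 plus Timp3 divided by that sum was 1.09, 1.22 and 1.34 in RA WT, 0.835, 1.08 and 0.768 in OIR WT, and 1.10, 0.988 and 1.06 in OIR KO. The ratio in all 3 OIR WT libraries was below the lowest RA WT library, in OIR WT 2 only slightly, and the OIR KO ratios overlapped those of RA WT. This holds for Timp2 and Timp3 only. With Timp1 added, the inhibitors summed to 45.1, 55.7 and 68.4 FPKM in RA WT 1 to 3. In OIR WT 1 to 3 they summed to 66.2, 54.5 and 69.2 FPKM. The protease sums were 41.1, 45.4 and 50.6 FPKM in RA WT and 58.2, 47.4 and 65.9 FPKM in OIR WT. With Timp1 counted, the ratios of RA WT and OIR WT thus overlapped.

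**Figure D1:**
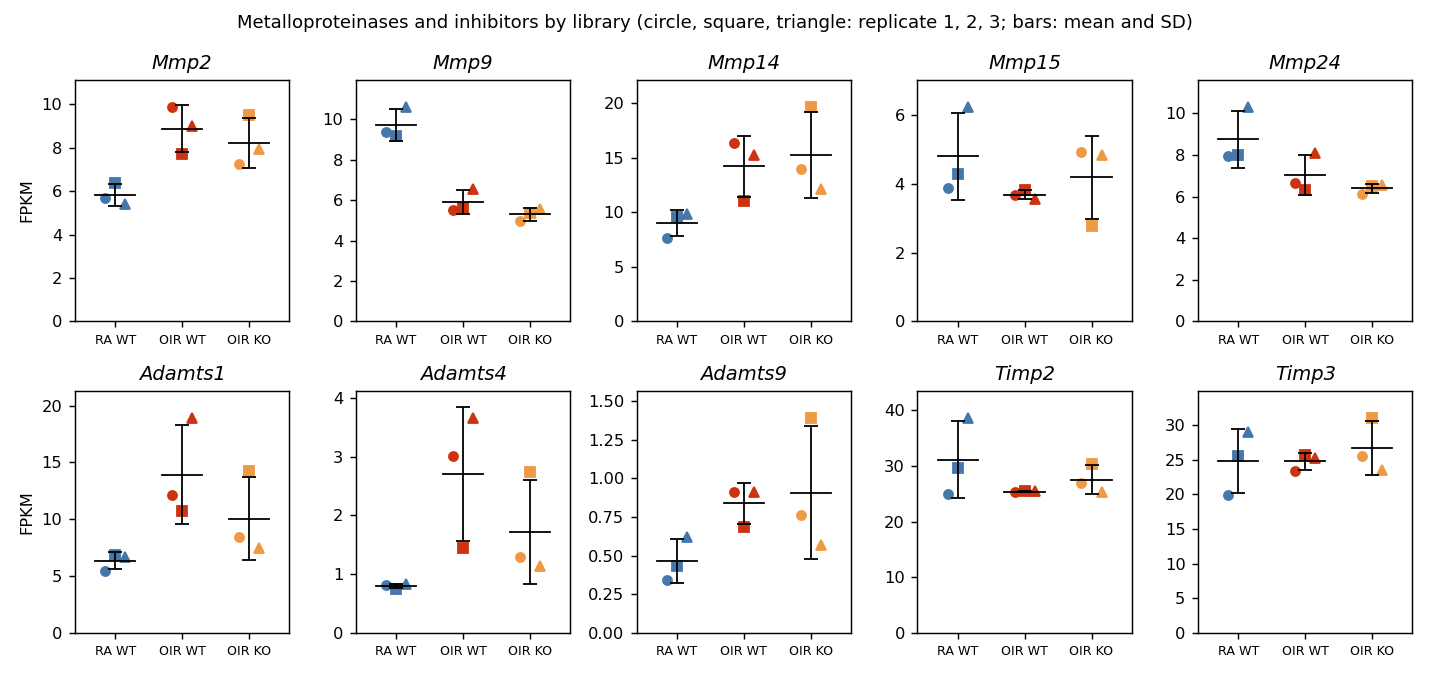
Level of each gene in FPKM (vertical axis, from 0) in the 3 libraries of RA WT, OIR WT and OIR KO, with the group mean as a line and the SD as error bars. Mmp9 lies between 9.19 and 10.6 FPKM in RA WT and between 4.96 and 6.57 FPKM in the 6 retinopathy libraries.

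In the wild type, OIR WT set against RA WT addresses how these genes respond to retinopathy. Adamts1, Adamts4 and Mmp2 rose, Mmp9 fell, and the other 6 did not pass the test (limma on log2(FPKM + 0.5), Benjamini-Hochberg adjusted p under 0.05 over the 15678 genes tested). That is 3 of 10 higher, where 8.04% of all genes tested were called higher, and 1 of 10 lower, where 7.92% were. The median difference of the 10 genes was 0.24 on the log2 scale, against 0.015 for all genes tested. That median is the midpoint between Timp3 (0.011) and Adamts9 (0.47), so it rests on Adamts9. The groups did not overlap for 7 of the 10 genes, Adamts9 among them, as for 35.0% of all genes tested. Adamts9 entered the test through the retinopathy groups, so its place in the median and in this count is no support for a direction. In bulk tissue, a change in RNA per cell and a change in the number of cells that make it cannot be told apart.

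Mmp9 encodes the gelatinase B, which cuts denatured collagen and basement membrane collagen and is often studied as a product of leukocytes. It was at 9.36, 9.19 and 10.6 FPKM in RA WT 1 to 3 and at 5.53, 5.59 and 6.57 FPKM in OIR WT 1 to 3. Every OIR WT library was below every RA WT library, and the gap between the groups was wider than the range within either. The difference was -0.68 (SE 0.11, 95% interval -0.92 to -0.44, adjusted p = 0.00453), or 0.607 times the RA WT mean. Mmp9 was called under all 20 alternatives, with differences from -0.75 to -0.61. Its gene lies on chromosome 2 (GRCm38, 164940780 to 164955850, plus strand), with no annotated gene overlapping it. Summed neutrophil markers went the other way, from 0.112 to 0.144 FPKM in the RA WT libraries to 0.821 to 1.56 FPKM in the OIR WT libraries, and 9 of these 10 markers stayed under 1 FPKM in every library. Their part in the Mmp9 values was not tested.

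Mmp2 encodes gelatinase A, the other enzyme of the same substrate class, made mostly by stromal and vascular cells in many tissues. It was at 5.69, 6.37 and 5.41 FPKM in RA WT 1 to 3 and at 9.90, 7.74 and 8.99 FPKM in OIR WT 1 to 3, with no overlap. It rose by 0.56 (SE 0.13, 95% interval 0.28 to 0.85, adjusted p = 0.0181). Leaving out 1 library ended this call in 3 cases, RA WT 3 (adjusted p = 0.0602), OIR WT 1 (0.0782) and OIR WT 3 (0.0593). The ratio of Mmp9 to Mmp2 was 1.65, 1.44 and 1.96 in RA WT 1 to 3, and 0.559, 0.723 and 0.731 in OIR WT 1 to 3. Mmp9 was thus the higher gelatinase RNA in each RA WT library and the lower in each OIR WT library. Mmp2 lies on chromosome 8 (92827291 to 92853420, plus strand).

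Mmp14 encodes the membrane-type enzyme that activates MMP2 at the cell surface. It was at 7.65, 9.59 and 9.82 FPKM in RA WT 1 to 3 and at 16.3, 11.04 and 15.2 FPKM in OIR WT 1 to 3. The groups did not overlap, though OIR WT 2 was near the top RA WT libraries. The difference of 0.62 (SE 0.19, 95% interval 0.18 to 1.05) did not pass the test (adjusted p = 0.0598). It did pass in 3 of the 20 alternatives, among them without OIR WT 2 (adjusted p = 0.0294). Mmp14 lies on chromosome 14 (54431612 to 54445364, plus strand).

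Mmp15 and Mmp24 are 2 further membrane-type enzymes, and Mmp24 is known mainly from neurons. Mmp15 was at 3.89, 4.30 and 6.26 FPKM in the RA WT libraries and at 3.67, 3.83 and 3.56 FPKM in the OIR WT libraries (difference -0.32, SE 0.22, 95% interval -0.80 to 0.17, adjusted p = 0.358). Its groups did not overlap, but OIR WT 2 and RA WT 1 were nearly equal, and RA WT 3 set the height of its mean. Mmp24 was at 7.93, 7.97 and 10.3 FPKM in the RA WT libraries and at 6.66, 6.32 and 8.10 FPKM in the OIR WT libraries (difference -0.29, SE 0.13, 95% interval -0.58 to -0.0032, adjusted p = 0.161). RA WT 3 and OIR WT 3 were the highest library of their groups, and the groups overlapped. Mmp24 (chromosome 2, 155775342 to 155818366, plus strand) shares 637 exon bases with BC029722 on the opposite strand. BC029722 fell from 43.0 ± 5.64 to 32.3 ± 2.58 FPKM (difference -0.40, adjusted p = 0.0338). The files do not say whether counting used strand, so reads of this pair may be mixed.

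On the log2(FPKM + 0.5) scale, Adamts4 and Adamts1 had the largest differences of the set in OIR WT against RA WT. Adamts9 had a smaller one than Mmp9, Mmp14 and Mmp2 on that scale, where the added 0.5 FPKM weighs most on low genes. By the ratio of OIR WT to RA WT means, Adamts9 (1.80) was above Mmp14 (1.57) and Mmp2 (1.52), and Mmp9 was at 0.607. Adamts1, a proteoglycan-cutting enzyme that also binds the growth factor VEGF, was at 5.48, 6.81 and 6.71 FPKM in RA WT 1 to 3 and at 12.1, 10.7 and 18.9 FPKM in OIR WT 1 to 3. All OIR WT libraries were well above the highest RA WT library, and OIR WT 3 was highest. It rose by 1.04 (SE 0.26, 95% interval 0.46 to 1.62, adjusted p = 0.0262), a 2.198-fold difference of means. The call ended when any 1 RA WT library, OIR WT 1 or OIR WT 3 was left out (adjusted p = 0.0643 to 0.0753), and with a covariate of Y-linked genes (0.0687). Adamts1 lies on chromosome 16 (85793827 to 85803113, minus strand).

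Adamts4, also called aggrecanase 1, was at 0.812, 0.751 and 0.829 FPKM in RA WT 1 to 3, a narrow range, and at 3.01, 1.44 and 3.66 FPKM in OIR WT 1 to 3. OIR WT 2 was less than midway between RA WT and the other OIR WT libraries. It rose by 1.23 (SE 0.31, 95% interval 0.53 to 1.93, adjusted p = 0.0272), and its mean was 3.39-fold higher. The same 5 libraries, left out in turn, each ended the call (adjusted p = 0.0609 to 0.0975), as did the Y-linked covariate (0.0742). Adamts4 lies on chromosome 1 (171250421 to 171260637, plus strand).

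Adamts9, a large enzyme linked to the secretory pathway and to blood vessels, was at 0.344, 0.434 and 0.618 FPKM in the RA WT libraries and at 0.912, 0.684 and 0.914 FPKM in the OIR WT libraries. The groups did not overlap, and the difference of 0.47 (SE 0.22, 95% interval -0.017 to 0.97) did not pass (adjusted p = 0.178). At these levels the added 0.5 FPKM shrinks the difference, and with 0.1 FPKM added it was 0.75. Adamts9 (chromosome 6, 92772699 to 92943492, minus strand) shares 1381 exon bases with A730049H05Rik on the opposite strand, which was at 0.563 FPKM or less.

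The inhibitors of the set passed in no comparison. Timp2 was at 25.0, 29.7 and 38.6 FPKM in the RA WT libraries and at 25.3, 25.5 and 25.4 FPKM in the OIR WT libraries (difference -0.27, SE 0.14, 95% interval -0.58 to 0.050, adjusted p = 0.238). RA WT 1 was at the OIR WT level, and the RA WT libraries spread far more widely than the OIR WT libraries. Timp3 was at 19.9, 25.6 and 29.0 FPKM in the RA WT libraries and at 23.3, 25.7 and 25.2 FPKM in the OIR WT libraries (difference 0.011, SE 0.14, 95% interval -0.31 to 0.33, adjusted p = 0.969). Timp3 (chromosome 10, 86300372 to 86349506, plus strand) lies inside Syn3, on the opposite strand, with 1733 shared exon bases, and Syn3 was at 1.73 ± 0.724 FPKM in RA WT. Timp2 lies on chromosome 11 (118301069 to 118355740, minus strand). Summed markers of the retinal pigment epithelium, a tissue next to the retina that makes much TIMP3, ranged from 64.5 to 128 FPKM in room air (RA WT), 37.4 to 87.7 FPKM in OIR WT and 69.2 to 123 FPKM in OIR KO. Their part in the Timp3 values was not tested.

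**Figure D2:**
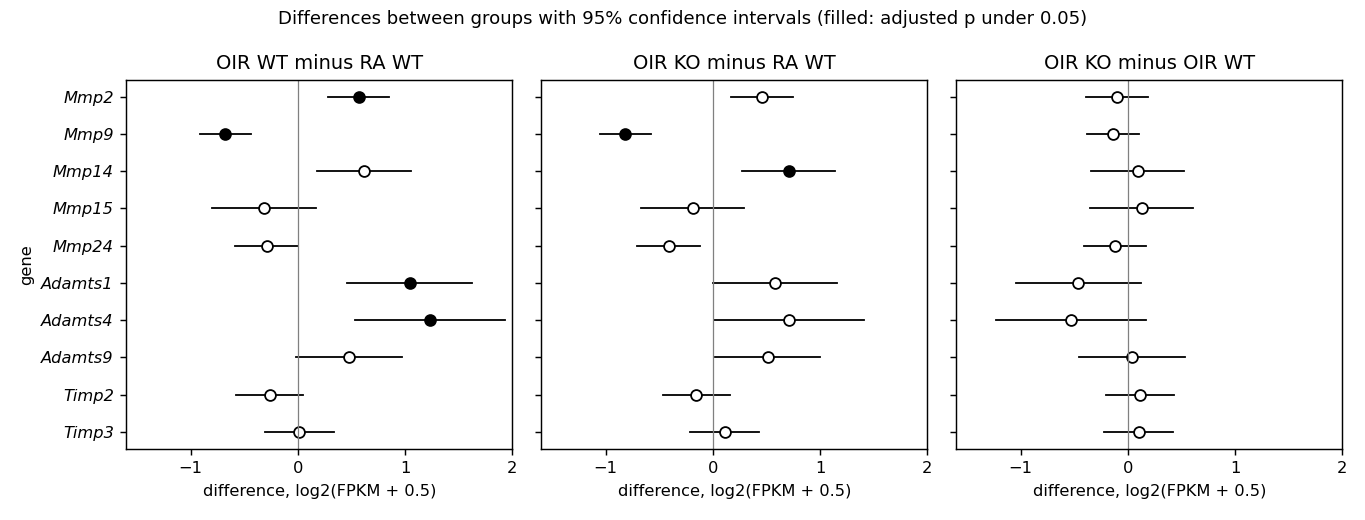
Difference between group means on the log2(FPKM + 0.5) scale (horizontal axis) for each gene (vertical axis), with 95% confidence intervals from limma, in 3 panels, one for each comparison. Filled points passed the test: Mmp2, Mmp9, Adamts1 and Adamts4 for OIR WT minus RA WT, Mmp9 and Mmp14 for OIR KO minus RA WT, and no gene for OIR KO minus OIR WT.

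The comparison of OIR KO with OIR WT asks what loss of IL-19 does to these genes in retinopathy. No gene of the set was called by limma, and 0 of 10 had an unadjusted p under 0.05, in a comparison where 9.91% of all genes tested did. Over all genes tested, 0.0574% were called higher and 0.0765% lower in OIR KO. The groups overlapped for each of the 10 genes, in a comparison where 17.7% of all genes tested did not overlap. Limma without its variance trend and robust option also called 0 of the 10.

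Adamts4 and Adamts1 had the largest differences in this comparison, both toward lower values in OIR KO. Adamts4 was at 1.28, 2.74 and 1.14 FPKM in OIR KO 1 to 3, a mean of 0.636 times that of OIR WT (difference -0.53, SE 0.31, 95% interval -1.23 to 0.17, adjusted p = 0.634). Adamts1 was at 8.47, 14.2 and 7.45 FPKM, a mean of 0.722 times that of OIR WT (difference -0.46, SE 0.26, 95% interval -1.04 to 0.12, adjusted p = 0.610). For both genes OIR KO 2 lay among the OIR WT libraries, and OIR KO 1 and OIR KO 3 lay below all of them. Without OIR KO 2 the differences were -0.83 for Adamts4 and -0.73 for Adamts1, and neither passed. The intervals still allow a fall by more than a log2 unit, so similar levels in the 2 genotypes are not shown.

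The metalloproteinases proper lay closer together. Mmp9 was at 4.96, 5.38 and 5.56 FPKM in OIR KO (difference -0.14, 95% interval -0.38 to 0.10, adjusted p = 0.727) and Mmp2 at 7.25, 9.50 and 7.97 FPKM (difference -0.10, 95% interval -0.39 to 0.19, adjusted p = 0.844). Mmp14 was at 13.9, 19.7 and 12.2 FPKM (difference 0.09, 95% interval -0.34 to 0.53, adjusted p = 0.924). OIR KO 2 held the highest value of all 9 libraries for Mmp14, and also for Adamts9, at 0.761, 1.39 and 0.571 FPKM in OIR KO 1 to 3 (difference 0.037, 95% interval -0.45 to 0.53). Mmp15 went the other way in that library, at 4.93, 2.79 and 4.85 FPKM, the lowest value of all 9 (difference 0.13, 95% interval -0.36 to 0.61). Mmp24 was at 6.12, 6.50 and 6.55 FPKM (difference -0.12, 95% interval -0.41 to 0.17). Timp2, at 26.9, 30.4 and 25.4 FPKM, and Timp3, at 25.6, 31.0 and 23.5 FPKM, differed by 0.11 (95% interval -0.20 to 0.43) and 0.10 (95% interval -0.22 to 0.42).

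Against the same RA WT libraries, OIR KO had Mmp14 higher and Mmp9 lower. That is 1 of 10 called higher, with 4.75% of all genes tested, and 1 of 10 lower, with 5.69%. The groups did not overlap for 6 of the 10, as for 32.7% of all genes tested. Since the RA WT libraries serve both comparisons, the values stand beside those of OIR WT and are no second test of them. Mmp9 differed by -0.82 (SE 0.11, 95% interval -1.06 to -0.58, adjusted p = 0.00373) and was called under all 20 alternatives. Mmp14 differed by 0.71 (SE 0.19, 95% interval 0.27 to 1.14, adjusted p = 0.0482), which 13 of 20 alternatives ended, among them leaving out any 1 RA WT library, OIR KO 1 (adjusted p = 0.0949), OIR KO 2 (0.138), OIR WT 1 (0.0575) or OIR WT 3 (0.0654). Without the 2 libraries high in lens markers the difference was 0.41 (adjusted p = 0.245).

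Mmp2 just missed the threshold in this comparison (difference 0.46, SE 0.13, adjusted p = 0.0501) and passed in 5 of 20 alternatives. Its OIR KO libraries were all above RA WT. Mmp24 was lower in every OIR KO library than in any RA WT library (difference -0.41, SE 0.13, adjusted p = 0.0705). Adamts1 (difference 0.58, adjusted p = 0.183) and Adamts4 (difference 0.71, adjusted p = 0.178) were above every RA WT library in each OIR KO library and did not pass. For Adamts9 the difference was 0.51 (adjusted p = 0.167), for Mmp15 -0.19 (0.616), for Timp2 -0.15 (0.524) and for Timp3 0.11 (0.669).

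Several of these genes varied together from library to library, also within groups. Pearson correlations were taken on log2(FPKM + 0.5) over the 9 libraries, which share their groups and therefore the group differences. They were also taken on the deviations from the group means. Adamts1 and Adamts4 correlated at 0.954, and at 0.866 within groups. Mmp14 and Adamts9 correlated at 0.952 and 0.914, and Mmp9 and Mmp24 at 0.906 and 0.938. The gelatinases Mmp2 and Mmp9 ran opposite over all libraries (-0.812) and showed no relation within groups (-0.003). With 9 libraries these are descriptions of the libraries only.

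The libraries with the most Adamts1 and Adamts4 were OIR WT 3, OIR KO 2 and OIR WT 1, the same 3 that were high in Timp1. OIR WT 2, OIR KO 1 and OIR KO 3 had 1.44, 1.28 and 1.14 FPKM of Adamts4, each above RA WT but below those 3. Timp1 took 26.7%, 26.8% and 21.5% of the summed Timp1, Timp2 and Timp3 RNA in OIR WT 1, OIR WT 3 and OIR KO 2. In the other retinopathy libraries its share was 3.28 to 6.01%, and in RA WT it was 0.522 to 1.04%.

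**Figure D3:**
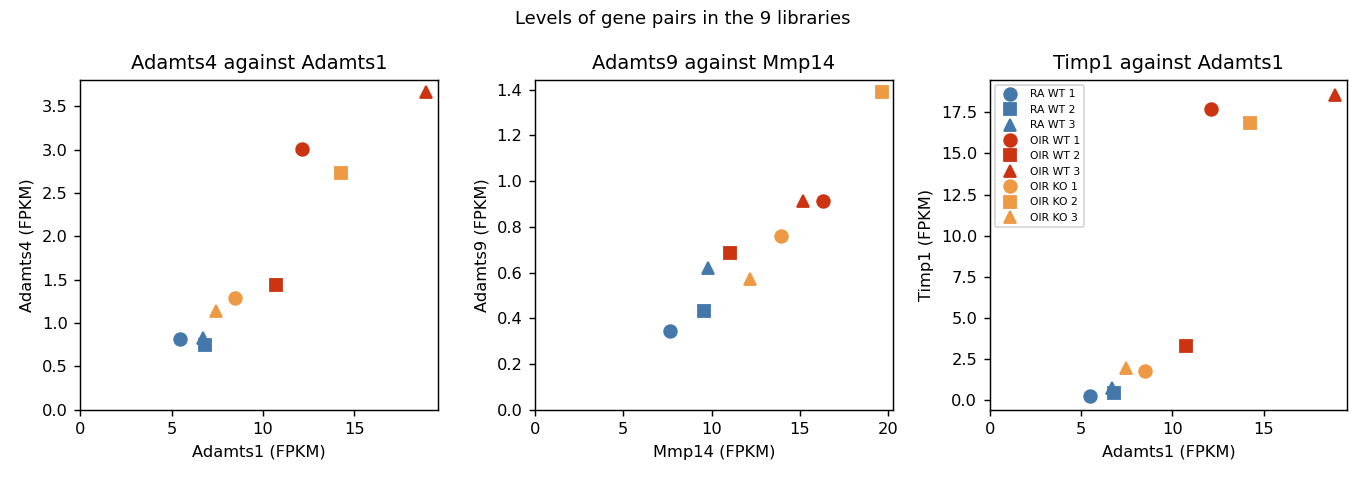
Levels in FPKM of Adamts4 against Adamts1, Adamts9 against Mmp14 and Timp1 against Adamts1, 1 point per library, with color for the group and shape for the replicate number. OIR WT 1, OIR WT 3 and OIR KO 2 lie at the upper right in the Adamts4 and Timp1 panels, above the other retinopathy libraries and RA WT.

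The upstream sequences of Mmp14 and Adamts1 are shown because for both genes every retinopathy library was above every RA WT library. Of the 10 genes, 7 had an entry in the RefSeq promoter table of build GRCm38.p6. The windows are the 250 bases before the annotated start, 5′ to 3′ along the gene, at chr14:54431348-54431597 (plus strand) and chr16:85803114-85803363 (minus strand). Capitals mark the letters ACGTG or GCGTG, the core that hypoxia-inducible factors can bind, on either strand. No annotated exon lies in either window.
Mmp14: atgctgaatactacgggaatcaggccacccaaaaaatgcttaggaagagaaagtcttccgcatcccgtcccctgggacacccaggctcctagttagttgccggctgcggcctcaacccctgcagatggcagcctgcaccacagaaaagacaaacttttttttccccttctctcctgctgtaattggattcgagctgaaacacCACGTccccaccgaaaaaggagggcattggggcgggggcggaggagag
Adamts1: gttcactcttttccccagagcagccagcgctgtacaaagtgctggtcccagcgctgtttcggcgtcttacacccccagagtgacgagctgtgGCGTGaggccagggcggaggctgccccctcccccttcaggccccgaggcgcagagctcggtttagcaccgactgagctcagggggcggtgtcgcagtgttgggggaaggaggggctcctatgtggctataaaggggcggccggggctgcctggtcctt
Mmp14 held ACGTG, read on the opposite strand, and Adamts1 held GCGTG. Among the 7 windows, 1 held ACGTG and 4 held GCGTG (Adamts1, Adamts9, Timp2 and Timp3), against 16.6% and 28.2% of the 32851 windows of all genes. Timp2 and Timp3, which did not pass any test, thus held the same letters as Adamts1. The letters TGANTCA, bound by AP-1 factors, were in 0 of the 7 and in 6.7% of all windows.

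The wider families and pathway lists show what else moved in OIR WT. Over all genes tested, 8.04% were called higher and 7.92% lower in OIR WT against RA WT. The lists were chosen with earlier results of these data known, so their counts are descriptions only. Mmp11, Mmp12, Adamts5, Tfpi2, Reck, Furin, Nid2, Bcan, Hapln1, Hapln4 and Efemp1 fall outside the rule for named genes and were chosen after their values were seen. The same holds for Adamts2 and Adamts15, which were not called. Mmp12, Adamts2, Tfpi2, Plau and Plaur reached 0.5 FPKM in retinopathy libraries and in no RA WT library. Hapln1 and Adamts15 reached it in RA WT libraries and in no other. These genes entered the test through the groups where they are high. Their place in the counts and medians below is therefore no support for a direction. Of 16 other MMP genes, 6 were tested, and 11 stayed under 1 FPKM in every library. Mmp12, the macrophage elastase, rose from 0.0176 ± 0.00592 to 0.674 ± 0.308 FPKM (difference 1.15, adjusted p = 0.0262) and was 1 of 2 genes of the list that were called. That call ended when any 1 RA WT library, OIR WT 1 or OIR WT 3 was left out (0.0596 to 0.0932), with the replicate block (0.0609) and with the Y-linked covariate (0.0512). Mmp17, a membrane-type enzyme held by a lipid anchor, fell from 5.38 ± 1.20 to 3.33 ± 0.141 FPKM (difference -0.60, adjusted p = 0.0325), which no longer passed when RA WT 1, RA WT 3 or any single OIR WT library was left out (0.0572 to 0.105). In OIR KO, Mmp17 was at 4.84 ± 0.749 FPKM, above each OIR WT library, without passing the test (difference 0.47, adjusted p = 0.393). The stromelysin gene Mmp11 was called in OIR KO against RA WT (4.43 ± 2.27 against 1.52 ± 0.140 FPKM, difference 1.19, adjusted p = 0.0415), and its OIR KO minus OIR WT difference was 0.41 (adjusted p = 0.724). The Mmp11 call ended when any 1 RA WT library, OIR KO 1, OIR KO 2 or OIR WT 3 was left out (0.0610 to 0.111), and without both libraries high in lens markers the difference was 0.79 (adjusted p = 0.173). It also ended with no filter, the 2-group fit, the replicate block or the Y-linked covariate (0.0563 to 0.0834).

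Of 22 other ADAMTS and ADAMTS-like genes, 14 were tested and 1 was called in OIR WT against RA WT. Papln, which encodes papilin, a matrix protein related to ADAMTS, fell from 1.41 ± 0.128 to 0.580 ± 0.137 FPKM (difference -0.83, adjusted p = 0.0129), and was 0.669 ± 0.220 FPKM in OIR KO. The median of the 14 was -0.20. Adamts5, aggrecanase 2, was at 4.01 ± 0.635 FPKM in the RA WT libraries and 3.02 ± 0.253 FPKM in the OIR WT libraries and was not called. Among 10 tested ADAM genes, the membrane sheddases and their catalytically inactive relatives, 2 rose and 2 fell. Adam12 rose from 0.525 ± 0.0541 to 1.11 ± 0.334 FPKM (difference 0.63, adjusted p = 0.0356) and Adam9 from 23.6 ± 3.78 to 32.4 ± 1.92 FPKM (difference 0.46, adjusted p = 0.0309). The Adam12 call was lost without any 1 RA WT library, OIR WT 1, OIR WT 3 or OIR KO 1 (0.0538 to 0.120), and the Adam9 call when the second or the third library of RA WT, or OIR WT 1 or OIR WT 3, was left out (0.0930 to 0.102). The neuronal genes Adam11 and Adam22, which lack protease activity, fell from 19.9 ± 3.05 to 13.1 ± 0.420 FPKM (difference -0.57, adjusted p = 0.0149) and from 12.5 ± 0.965 to 8.57 ± 0.306 FPKM (difference -0.51, adjusted p = 0.00967). The Adam11 call was lost without OIR WT 1 (0.0608).

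Inhibitors outside the set moved far more than Timp2 and Timp3. Of 6 tested, 5 rose and 1 fell, where 8.04% of all genes tested were called higher and 7.92% lower. Their median difference was 3.0, against 0.015 for all genes tested. Timp1 was at 0.235, 0.395 and 0.710 FPKM in RA WT 1 to 3 and at 17.7, 3.27 and 18.6 FPKM in OIR WT 1 to 3 (difference 3.56, adjusted p = 0.0305), which no longer passed when any 1 RA WT library, OIR WT 1 or OIR WT 3 was left out (0.0697 to 0.103). A2m, alpha-2-macroglobulin, which traps proteases of all classes, rose from 0.881 ± 0.394 to 15.6 ± 5.25 FPKM (difference 3.52, adjusted p = 0.00483). Pcolce, which enhances procollagen processing and whose fragment has been described as an inhibitor, rose from 6.98 ± 1.497 to 91.1 ± 43.8 FPKM (difference 3.48, adjusted p = 0.0110). Tfpi2 passed too (difference 0.90, adjusted p = 0.0394), but not when any 1 RA WT library, OIR WT 1, OIR WT 3 or OIR KO 1 was left out (0.0569 to 0.127), nor with no filter, quantile normalization, the replicate block or the Y-linked covariate (0.0501 to 0.106). Reck, a membrane-anchored inhibitor of MMPs, fell from 6.21 ± 0.891 to 3.53 ± 0.810 FPKM (difference -0.75, adjusted p = 0.0159), a call that ended when RA WT 2 (0.0582), OIR WT 1 (0.0644) or OIR WT 3 (0.0590) was left out.

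Of 9 genes of activation and clearance, 3 rose in OIR WT. They were the plasminogen activator genes Plau, from 0.112 ± 0.0566 to 1.34 ± 0.262 FPKM (difference 1.58, adjusted p = 0.00259), and Plat, from 7.16 ± 0.614 to 21.3 ± 5.70 FPKM (difference 1.48, adjusted p = 0.00725), and the urokinase receptor gene Plaur, from 0.164 ± 0.0768 to 1.99 ± 0.362 FPKM (difference 1.90, adjusted p = 0.000808). Plau was at 0.440 ± 0.247 FPKM in OIR KO, below each OIR WT library, with a difference that did not pass (-0.99, adjusted p = 0.169). Furin, the convertase that removes the prodomain of membrane-type MMPs and ADAMTS enzymes, was at 21.8 ± 2.12 FPKM in the RA WT libraries and 21.0 ± 1.39 FPKM in the OIR WT libraries.

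Substrates and matrix partners went both ways, with 5 of 15 tested genes higher and 4 lower. The risen genes were Bgn (difference 2.40), Fn1 (2.13), Thbs1 (1.86), Nid1 (1.54) and Nid2 (1.27). Fn1, fibronectin, rose from 9.52 ± 1.03 to 44.0 ± 9.76 FPKM (adjusted p = 0.00348), and Bgn, the small proteoglycan biglycan, from 3.28 ± 0.613 to 19.6 ± 4.28 FPKM (adjusted p = 0.00339). The Thbs1 call (adjusted p = 0.0241) was lost without any 1 RA WT library or OIR WT 3 (0.0576 to 0.0772). The fallen genes were the brain proteoglycan Bcan (difference -0.94), the link proteins Hapln4 (-1.12) and Hapln1 (-0.50), and the matrix protein gene Efemp1 (-0.73). Bcan is a known substrate of ADAMTS4. It fell from 2.46 ± 0.470 to 1.06 ± 0.357 FPKM (adjusted p = 0.0238), and RNA levels do not show cleavage. The Bcan call ended when RA WT 2, RA WT 3 or OIR WT 1 was left out (0.0726 to 0.0899), and the Hapln1 call when any 1 of the 9 libraries was (0.0545 to 0.152). In OIR KO against OIR WT, none of the tested genes in these family and pathway lists was called by limma.

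**Figure D4:**
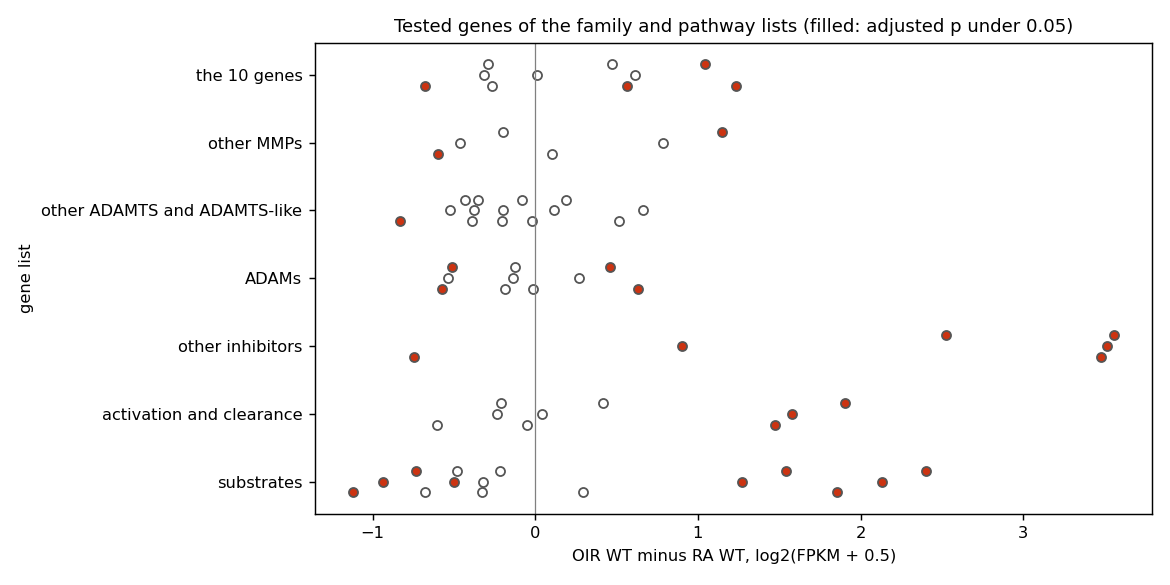
Difference OIR WT minus RA WT on the log2(FPKM + 0.5) scale (horizontal axis) for each tested gene, by list (vertical axis), with genes that passed the test filled. Inhibitors outside the set reach 3.56, while the 10 genes described lie between -0.68 and 1.23.

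Some markers of pericytes, macrophages, fibroblasts and endothelium were called higher in OIR WT, where Mmp2, Adamts1 and Adamts4 rose. Of all genes tested, 8.04% were called higher and 7.92% lower in OIR WT against RA WT. The 10 pericyte and smooth muscle markers summed to 43.3 to 58.0 FPKM in room air (RA WT), 98.2 to 150 FPKM in OIR WT and 78.5 to 137 FPKM in OIR KO, and 6 of 10 rose in OIR WT. The 11 endothelial markers summed to 73.0 to 99.9, 96.8 to 131 and 127 to 169 FPKM, with 4 risen and 1 (Tek) fallen in OIR WT, so the RA WT and OIR WT sums overlapped. The 12 microglia and macrophage markers summed to 28.8 to 34.2, 67.1 to 85.5 and 57.5 to 74.5 FPKM, with 6 of 10 tested risen. The 8 fibroblast, sclera and choroid markers summed to 5.70 to 7.89, 12.1 to 16.2 and 9.04 to 19.2 FPKM, with 3 of 4 tested risen in OIR WT. Of these 3, Col1a1 reached 0.5 FPKM in every retinopathy library and in no RA WT library. It entered the test through the groups where it is high, so its place in the count is no support for a direction. Another of the 3, Pdgfra, was also counted among the astrocyte markers. The 6 astrocyte markers summed to 42.0 to 51.2, 75.6 to 174 and 57.3 to 209 FPKM, and the 9 Müller glia markers to 2146 to 2738, 1367 to 1735 and 1892 to 2010 FPKM. Gfap, the filament gene of astrocytes and reactive Müller glia, held most of the astrocyte sum in OIR WT 1, at 126 FPKM. Of the astrocyte markers 3 rose and 2 (Aqp4 and S100b) fell in OIR WT, and of the Müller markers 2 rose and 5 fell. Erythrocyte markers summed to 82.5 to 158, 512 to 1431 and 112 to 1070 FPKM. The part of these cells in the values of the 10 genes was not tested.

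The genes most like each gene over the 9 libraries, among about 12747 with a mean of at least 1 FPKM, were picked by Pearson correlation on log2(FPKM + 0.5). For Mmp9 they were Hapln4 (r = 0.989) and Tppp (0.986), for Mmp24 Pitpna (0.984) and Elp3 (0.982), and for Mmp2 Lpar6 (0.981) and Asf1b (0.978). For Mmp14 they were Tspan15 (0.989) and Serping1 (0.985), for Adamts1 Tnfrsf12a (0.996) and Sdc4 (0.987), and for Adamts4 Ccl2 (0.997) and Rbm17 (0.991). For Adamts9 they were Ccnd1 (0.975) and Tbrg1 (0.975), for Mmp15 Vps18 (0.956) and Dtx1 (0.943), for Timp2 Gna11 (0.961) and Fmod (0.955), and for Timp3 Vstm4 (0.948) and Ackr3 (0.942). Ccl2, the chemokine most like Adamts4, was listed at 0 in RA WT and at a mean of 3.49 FPKM in OIR WT and 1.49 FPKM in OIR KO. Tnfrsf12a, the receptor most like Adamts1, had means of 3.58, 21.8 and 11.99 FPKM in RA WT, OIR WT and OIR KO. The 9 libraries share their 3 groups, so these correlations are descriptions.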

How the data were processed

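The authors deposited FPKM values, 1 column per library, for 25108 genes and gene models. HISAT2 and build GRCm38 are named per the submitters' processing notes. Quantifier, annotation release and strand setting: not given in the sources used here. Per the labels' protocols, libraries were made with an NEBNext Ultra kit from 1 ug of total RNA. Columns were matched to samples by their description labels, and groups and replicate numbers came from the titles. Absolute depth is unknown. In 4521 genes with 1 annotated transcript, steps of FPKM times length gave relative depths of 0.852 to 1.143, and 11.7 to 22.7% of low values (up to 20 steps) fell no more than 0.02 from a whole step. Whole reads could not be recovered, and no count model was run.

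Genes with at least 0.5 FPKM in at least 3 of 9 libraries (15678) were fitted as log2(FPKM + 0.5) with limma 3.58.1 in R 4.3.3, 1 mean per group over all 9 libraries, with variance trend and robust moderation. P-values were two-sided and Benjamini-Hochberg adjusted over all genes tested in each comparison. Adding 0.5 FPKM understates the change of low genes. The fit was tested on simulated data with known changes. Of 19 symbols on more than 1 row, the row with the highest mean was used. Positions came from GENCODE M21 (GRCm38). The genes and lists were chosen with earlier results of these data known. All 10 genes are named, with up to 4 called genes per list of largest change in OIR WT and a mean of at least 1 FPKM in either group, every list gene called between genotypes, and the 2 most correlated genes per gene. Alternatives were other pseudocounts, filters, scalings and moderation, a 2-group fit, a replicate block, a Y-linked covariate and leaving out each library. Leaving out RA WT 1 and OIR KO 2 together was chosen after seeing the data. Values of some genes of the lists are not reported here.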

Additional observations from a re-analysis of the deposited data

How the results depend on the processing

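Of the 10 genes, 4 were called in OIR WT against RA WT under the main settings. That number was 2 with the replicate block and 2 with the Y-linked covariate, and 1 to 5 when each library was left out, with Mmp9 called each time. In OIR KO against RA WT, 2 were called under the main settings. That number was 1 (Mmp9) without a filter, 1 without trend and robust moderation, 1 with only the 2 groups compared, 1 with the replicate block, 1 with the Y-linked covariate and 1 without the 2 libraries high in lens crystallins, and 1 to 3 when each library was left out. In OIR KO against OIR WT it was 0 under every alternative. No called gene of the set changed direction under any alternative.

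Over all genes, 2503 were called in OIR WT against RA WT, 1581 with the Y-linked covariate and 1031 to 2814 when each library was left out. In OIR KO against RA WT 1636 were called, 1081 with the replicate block, 521 without the 2 libraries high in lens crystallins and 709 to 1791 when each library was left out. In OIR KO against OIR WT 21 were called, 13 with a filter of 1 FPKM, 13 without trend and robust moderation, 8 with the replicate block and 11 to 42 when each library was left out. The family and pathway lists had 25 called genes in OIR WT against RA WT, and 14 to 26 when each library was left out. Fewer samples enter those fits, and for the other settings the cause was not tested. The replicate numbers share only a label: same-numbered libraries of different groups had correlations of deviations from -0.353 to 0.134. The replicate block ended the calls of Adamts1 (adjusted p = 0.0526) and Adamts4 (0.0698) in OIR WT and of Mmp14 (0.104) in OIR KO against RA WT. Absolute depth is unknown, which limits what can be said of Adamts9 and other genes under 1 FPKM.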
